A study of Mus musculus with 6 samples.

Results

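The ATF4 and ATF5 target programme is the set of genes that a cell turns on when protein synthesis, amino acid supply or the endoplasmic reticulum comes under strain. It was followed here through 10 genes in mouse olfactory epithelium: the transcription factor genes Atf4, Atf5 and Ddit3, and the target genes Trib3, Aldh1l2, Asns, Chac1, Mthfd2, Psat1 and Sesn2. Trib3 and Aldh1l2 were chosen by their higher counts in transgenic tissue in this same comparison, and the other 8 genes were added for their known place in the response. These are 10 of the 53686 gene symbols in the count table. All 10 passed the filter on low counts, which left 19267 genes to test.

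RNA with a poly-A tail was sequenced from dissected olfactory epithelium of C57BL/6J mice. There were 3 libraries from mice hemizygous for the transgene 5x21-OR1A1, named for a human odorant receptor, and 3 from wild-type mice. The libraries held 27506217 to 35804712 counts. The title of the study sets the comparison in the question of how an olfactory neuron chooses its receptor when a receptor transgene is highly represented. The cell type that drives the transgene, the number of founder lines, the ages and any pooling of animals are left unnamed by the labels, and the transcript of OR1A1 itself was not analysed here. The labels number the libraries without naming animals, so p-values measure only the spread between these libraries. By the counts of Xist and Ddx3y, transgenic library 1 and wild-type libraries 2 and 3 came from males and the other 3 from females. Levels are given as CPM, the count of a gene per 1000000 counts of the TMM-scaled library.

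In this response, kinases that sense stress phosphorylate the initiation factor eIF2. Most translation then slows while the messages of Atf4 and Atf5 are translated more, so much of the control of both factors lies in translation and not in the amount of message. The ATF4 protein binds DNA with C/EBP partners and switches on genes for amino acid supply, mitochondrial folate metabolism, redox balance and, through Ddit3, cell death. In olfactory neurons, the kinase PERK (gene Eif2ak3) and Atf5 are known for a brief use of this pathway when a neuron first expresses a receptor, after which the choice is made stable.

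Of the 10 genes, Trib3 stood at 2.03 times its wild-type level and Aldh1l2 at 2.53 times. Atf4 and Atf5, the factors that give the programme its name, had means below wild type. The Atf4 libraries overlapped between the genotypes and instead fell by sex. The remaining 6 genes lay above wild type by 1.32-fold or less. Passing was set at an edgeR adjusted p under 0.05 over all genes. Only Trib3 and Aldh1l2 passed, both higher, against 2.71% of all genes in either direction, 0.519% in the higher direction and 2.20% in the lower direction. Since this contrast chose those genes, nothing is read from that count and no p is given for any of the 10. The median log2 fold change of the other 8 genes was 0.19, and that of all genes was 0.02. Those 8 were also chosen with earlier results of these data known, so nothing is read from this difference either.

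**Figure D1:**
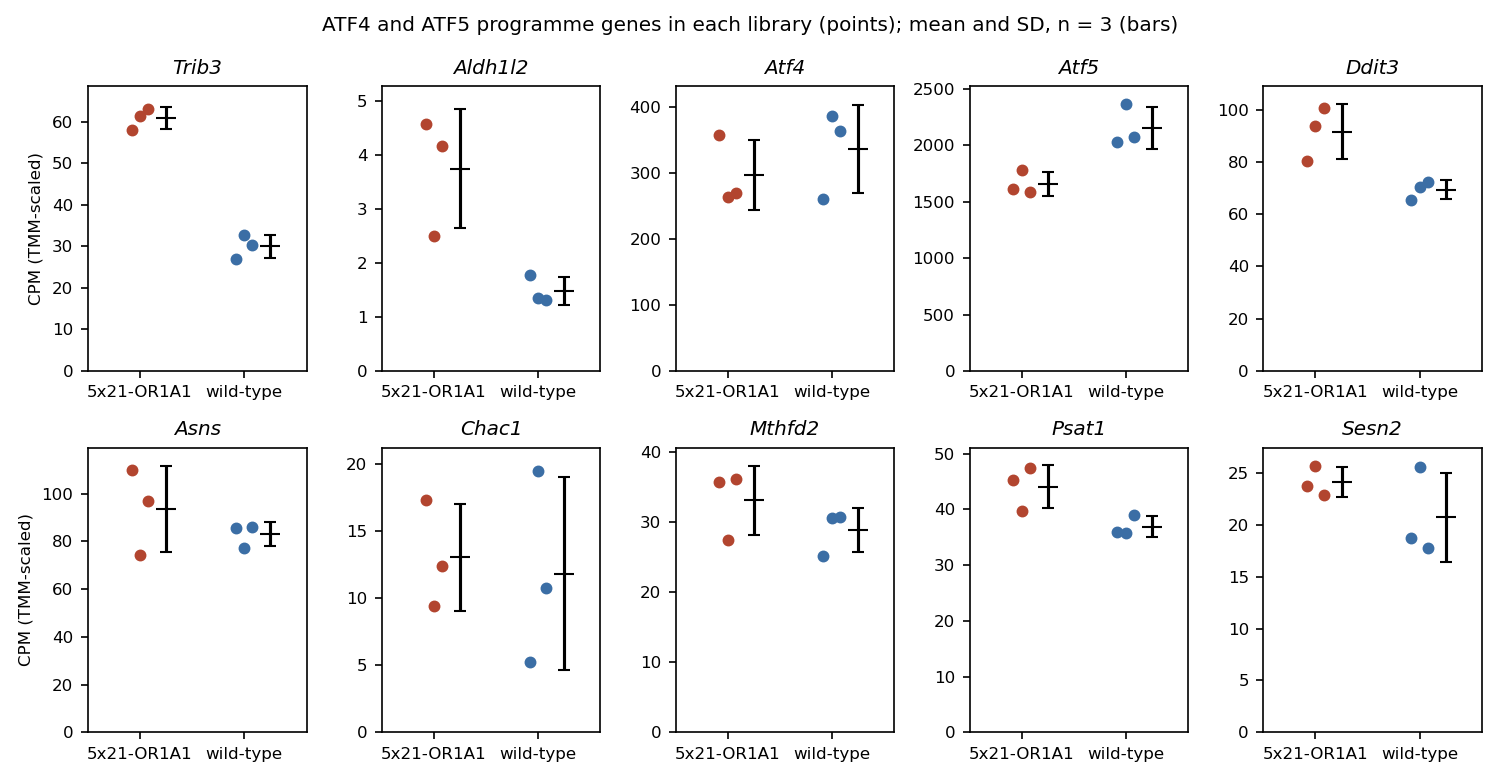
Level of each of the 10 genes (y axis, TMM-scaled CPM from 0) in every library, with 5x21-OR1A1 libraries left of wild-type libraries; points are libraries and bars are mean and SD (n = 3 each). Transgenic Trib3 libraries sit at 58.0 to 63.2 CPM, all above wild-type libraries, while Atf4, Asns, Chac1, Mthfd2 and Sesn2 overlap between the groups.

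Trib3 encodes a pseudokinase that ATF4 and CHOP (the protein of Ddit3) switch on and that feeds back to restrain ATF4. The gene is protein-coding, and in GRCm38 it spans chromosome 2 from 152337422 to 152344032 (minus strand). It had 58.0, 61.4 and 63.2 CPM in transgenic libraries, against 27.1, 32.7 and 30.2 CPM in wild-type libraries. The lowest transgenic library was far above the highest wild-type library, and replicates of each group stayed close together. The means were 60.9 ± 2.64 CPM in transgenic and 29.996 ± 2.84 CPM in wild-type tissue (SD, n = 3 each), a log2 fold change of 1.02 (SE 0.09), or 2.03-fold. Leaving out any 1 library gave values from 0.95 to 1.09. Within males the difference in log2 CPM was 0.88 (1 transgenic against 2 wild-type libraries), and within females 1.20 (2 against 1). Among the 10853 genes at a mean of 10 CPM or more, Trib3 ranked 29th from the highest fold change.

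Aldh1l2 encodes the mitochondrial enzyme that oxidises 10-formyl-tetrahydrofolate to carbon dioxide and yields NADPH. It spans chromosome 10 from 83487450 to 83534140 (minus strand). It was by far the scarcest member, with 168, 73 and 113 counts in transgenic libraries and 56, 49 and 38 counts in wild-type libraries. These were 4.58, 2.50 and 4.16 CPM in transgenic libraries, against 1.78, 1.35 and 1.31 CPM in wild-type libraries. The groups did not overlap, but transgenic library 2 lay nearer to wild-type library 1 than to the other transgenic libraries. The log2 fold change was 1.34 (SE 0.27), or 2.53-fold, and 1.17 to 1.56 when 1 library was left out. The gene no longer passed the threshold without transgenic library 1 or 3 or without any of the wild-type libraries. The lowest count of 38 has an exact 95% Poisson interval of 26.9 to 52.2, which covers counting error only. Its exons share 1056 bases, 14.1% of their length, with D10Wsu102e on the opposite strand. The libraries do not keep strand, so reads from those bases cannot be assigned; D10Wsu102e itself averaged 18.1 ± 1.06 CPM in transgenic and 16.5 ± 1.45 CPM in wild-type tissue (SD, n = 3 each), with an edgeR adjusted p of 0.564 for a log2 fold change of 0.13 (SE 0.10).

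The sequences around the start of the target genes are shown because ATF4 acts with C/EBP proteins through a composite element, read here as TGATGNAA on either strand. RefSeq promoter windows of 300 bases (250 before the start and 50 after, GRCm38.p6) were at hand for 9 of the 10 genes; Aldh1l2 was not among them. The element was found in 3 of those 9, Asns, Chac1 and Trib3. That was 3 of the 11 windows of the 9 genes, against 3.97% of all 32851 windows. A form called looser here, TGNTGCAAT, leaves the base after TG open and was chosen after the sequences had been read. It fixes the N of the first form as C and ends in a further T, and it was the rarer form. It overlaps the first form where the N is A. It was found in Trib3 and Psat1, in 2 of the 11 windows, and in 0.673% of all windows. TGACGCAA was also scanned and was found in Chac1 and in 0.49% of all windows. The CCAAT box was found in 7 of the 9 genes and in 37.4% of all windows. Matches to these further patterns are not printed or placed below. Matches are in capitals and each sequence runs 5′ to 3′ on the strand of its gene, minus except for Chac1:
Asns, chr6:7693210-7693258: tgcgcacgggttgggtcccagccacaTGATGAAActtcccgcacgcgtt
Chac1, chr2:119351023-119351082: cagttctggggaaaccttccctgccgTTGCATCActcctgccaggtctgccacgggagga
Trib3, chr2:152344028-152344057: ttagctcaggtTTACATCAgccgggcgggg
Trib3, looser form, chr2:152344061-152344119: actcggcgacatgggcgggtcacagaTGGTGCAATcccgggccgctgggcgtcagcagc
Psat1, looser form, chr19:15925161-15925221: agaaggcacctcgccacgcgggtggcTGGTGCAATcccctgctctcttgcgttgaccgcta

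Counted from the RefSeq start, with negative positions before it, the Asns match began at base -23, the Chac1 match at -193, the Psat1 match at -136 and the looser Trib3 match at -33, while the other Trib3 match began at 15. That Trib3 match and the Chac1 match read as the element on the opposite strand. A match describes letters and is not a measured binding site. Genes with a printed match did not share a fold change, since Trib3 stood at a log2 fold change of 1.02 and Asns, Chac1 and Psat1 at 0.18, 0.14 and 0.26.

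Of the factors, Atf5 was the most abundant member. Its protein is a bZIP factor needed for olfactory neurons to mature, and it also drives chaperone genes of stressed mitochondria. Atf5, on chromosome 7 at 44812256 to 44816658, had 1612, 1779 and 1584 CPM in transgenic libraries, against 2026, 2366 and 2073 CPM in wild-type libraries. Every transgenic library was lower than the lowest wild-type library, an order also seen in 12.5% of all genes tested. The log2 fold change was -0.38 (SE 0.12), and Atf5 did not pass the threshold. It passed with DESeq2, as lower, at -0.39. Markers of mature neurons were lower in the same libraries, and in whole tissue fewer cells of a type and less RNA per cell cannot be told apart. Scaled to the summed counts of those markers, the Atf5 value turned to 0.33, below the median of 0.715 that all genes had under that scaling. Omp was the largest part of that sum, with means of 6787 CPM in transgenic and 11518 CPM in wild-type tissue.

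Atf4 encodes the main factor of the response. On chromosome 15 at 80255184 to 80257541, it had 359, 264 and 269.8 CPM in transgenic libraries and 261, 386 and 364 CPM in wild-type libraries. The groups overlapped almost completely, and the log2 fold change was -0.18 (SE 0.18). The libraries instead fell by sex. The 3 males ranged from 359 to 386 CPM and the 3 females from 261 to 269.8 CPM, and all males lay above all females in 7.33% of genes tested; this pattern was seen in the values and was not tested. Within males the transgenic minus wild-type difference was -0.06 on the log2 scale, and within females 0.03. No other member separated by sex.

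Ddit3 encodes CHOP, the bZIP protein that ATF4 switches on under lasting stress. It had 80.2, 93.8 and 100.8 CPM in transgenic libraries, against 65.4, 70.4 and 72.5 CPM in wild-type libraries. The groups did not overlap, but the gap between the nearest libraries was small, and the log2 fold change of 0.40 (SE 0.10) did not pass the threshold. DESeq2 called it higher at 0.39. The difference was 0.17 within males and 0.57 within females. Ddit3 lies on chromosome 10 at 127290774 to 127296288 and shares 68 exon bases with Mars on the opposite strand; the annotation used here gives its symbol to 2 overlapping gene IDs and the labels do not say how the counting treated them.

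**Figure D2:**
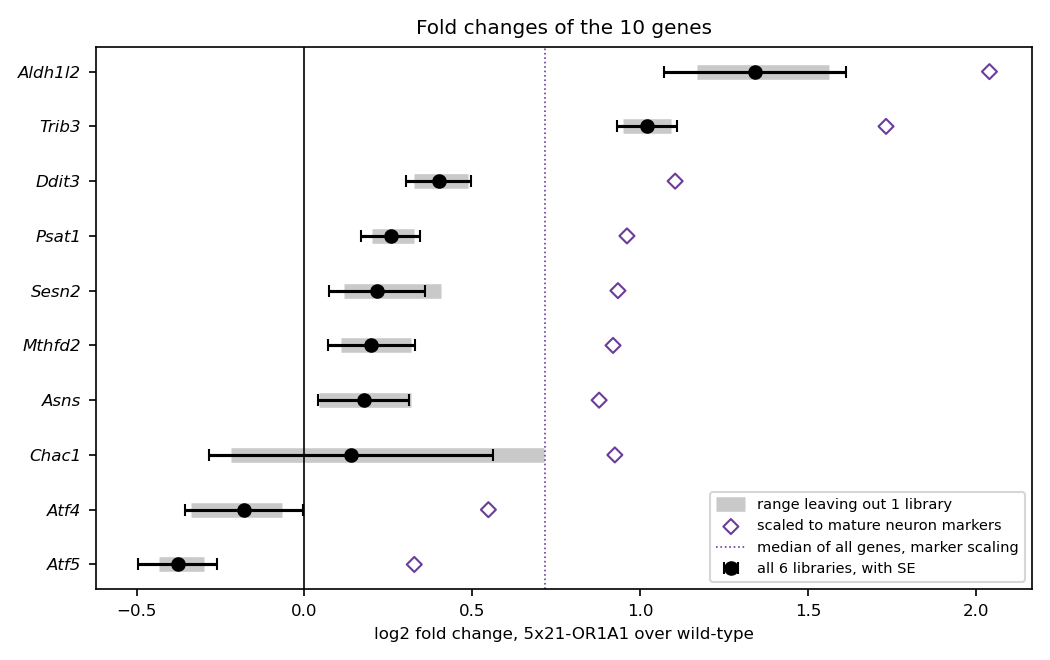
Log2 fold change, 5x21-OR1A1 over wild-type (x axis), of each of the 10 genes; black points with bars are the value and SE over 6 libraries, grey bands the range when 1 library is left out, and open diamonds the value with counts scaled to mature neuron markers, with that scaling's median of all genes dotted. Aldh1l2 and Trib3 stand apart at 1.34 and 1.02, Chac1 has the widest band, and Atf4 and Atf5 move above 0 but stay left of the dotted line under marker scaling.

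The metabolic targets differed little. Asns encodes asparagine synthetase and had 110.1, 74.3 and 96.7 CPM in transgenic libraries, against 85.5, 77.2 and 86.2 CPM in wild-type libraries. Transgenic library 2 lay below all wild-type libraries and the other transgenic libraries above them, so the groups overlapped (log2 fold change 0.18, SE 0.14). Psat1, of serine synthesis, had 45.2, 39.7 and 47.3 CPM in transgenic libraries, against 36.0, 35.754 and 39.0 CPM in wild-type libraries. Its groups just failed to overlap, with a log2 fold change of 0.26 (SE 0.09) that did not pass. Mthfd2, the mitochondrial enzyme that makes the folate substrate of Aldh1l2, had 35.76, 27.4 and 36.1 CPM in transgenic libraries, against 25.2, 30.6 and 30.6 CPM in wild-type libraries. Transgenic library 2 fell inside the wild-type range (log2 fold change 0.20, SE 0.13). Over the 10 genes, transgenic library 2 was the lowest of its group for Aldh1l2, Atf4, Asns, Mthfd2, Psat1 and Chac1, the highest for Atf5 and Sesn2, and in between for Trib3 and Ddit3.

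The redox and growth targets varied more between libraries than between genotypes. Chac1 encodes an enzyme that breaks down glutathione. It had 17.3, 9.40 and 12.4 CPM in transgenic libraries, against 5.27, 19.5 and 10.8 CPM in wild-type libraries. Wild-type libraries held both its lowest and its highest value, so its log2 fold change of 0.14 (SE 0.42) turned to -0.13 without transgenic library 1 and to -0.22 without wild-type library 1, and was 0.71 without wild-type library 2. Sesn2 encodes a leucine-sensing restraint on mTORC1. It had 23.7, 25.7 and 22.8 CPM in transgenic libraries, against 18.7, 25.6 and 17.8 CPM in wild-type libraries. Wild-type library 2 reached the transgenic range, and the log2 fold change was 0.22 (SE 0.14), or 0.41 without that library.

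Among the 8 members other than Trib3 and Aldh1l2, 2 (Ddit3 and Psat1) had every transgenic library above every wild-type library, 1 (Atf5) had the reverse order and 5 overlapped. Over all genes 11.4% had the first order and 12.5% the second. Atf4 and Atf5 lay below 0 in all alternatives run but the scaling to mature neuron markers, where both lay above 0 and below the median of all genes. With sex as a covariate the Atf4 value was only -0.02, so its sign there says little.

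Per length, the 10 genes kept nearly the same order of level in both genotypes. In CPM per kilobase of exon, Atf5 came first at 832 ± 53.0 in transgenic and 1081 ± 92.4 in wild-type tissue (SD, n = 3 each). Atf4 followed at 126 ± 22.4 in transgenic and 143 ± 28.3 in wild-type tissue, then Ddit3 at 53.5 ± 6.12 in transgenic and 40.5 ± 2.13 in wild-type tissue, and Asns at 34.3 ± 6.61 in transgenic and 30.3 ± 1.82 in wild-type tissue. Trib3 reached 28.6 ± 1.24 CPM per kilobase in transgenic and 14.1 ± 1.34 in wild-type tissue. In transgenic tissue its range overlapped that of Asns, and in wild-type tissue it lay wholly below. Psat1, Mthfd2, Chac1 and Sesn2 were neighbours that overlapped in range in both groups, from 10.4 (Psat1) down to 6.93 (Sesn2) in transgenic and from 8.68 (Psat1) down to 5.96 (Sesn2) in wild-type tissue. Aldh1l2 was last, at 0.500 ± 0.146 CPM per kilobase in transgenic and 0.197 ± 0.0346 in wild-type tissue, where its cytosolic relative Aldh1l1 stood at 8.96 ± 0.759 in transgenic and 9.97 ± 1.38 in wild-type tissue. Divided by mean transcript length instead, Trib3 fell behind Mthfd2 and Psat1 in wild-type tissue, so those ranks depend on the length used.

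**Figure D3:**
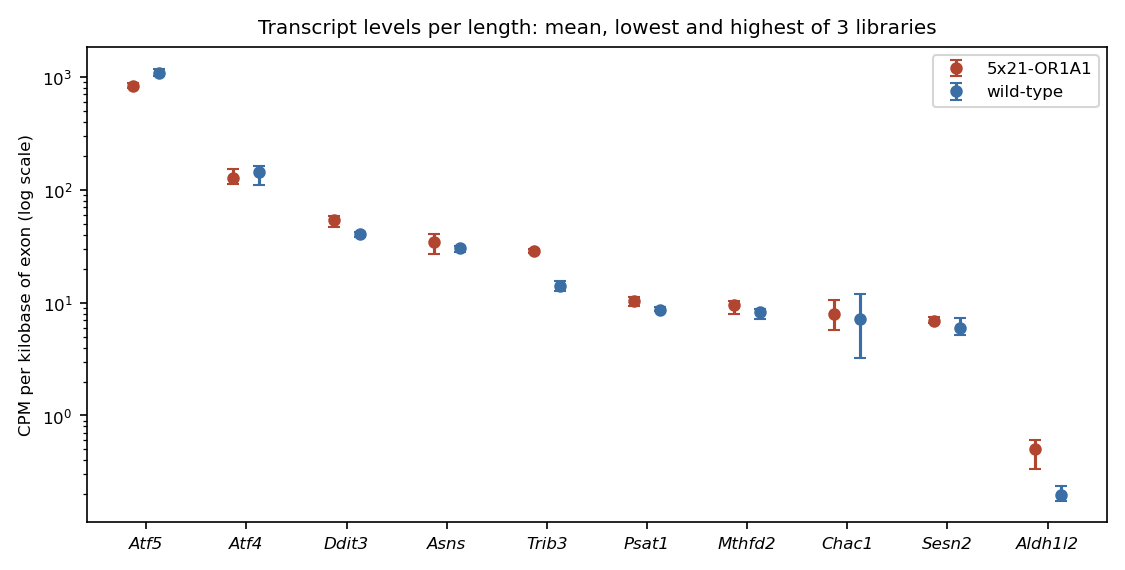
CPM per kilobase of joined exons (y axis, log scale) for the 10 genes in order of wild-type level, with 5x21-OR1A1 left of wild-type for each gene; points are means and bars run from the lowest to the highest of 3 libraries. Atf5 stands at 832 in transgenic and 1081 in wild-type tissue, and Aldh1l2 at 0.500 in transgenic and 0.197 in wild-type tissue.

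The rest of the pathway was read from 10 lists with 143 other genes, none of them a member. Of the 141 that could be tested, 4 passed, 3 higher and 1 lower, which is 2.84% against 2.71% of all genes. At an unadjusted p under 0.05 there were 28, or 19.9%, against 17.1% of all genes. Their median log2 fold change was 0.02, the same as that of all genes. The share called was thus near that of all genes. The count fell to 0 without transgenic library 2 or 3, to 1 without transgenic library 1 and to 2 without wild-type library 3. Over all genes 150 to 175 were called without 1 transgenic library and 448 without wild-type library 3, against 523 in the main test. The calls for Trib2, Slc38a1 and Edem1 were each lost without any 1 of the transgenic libraries, and those for Slc38a1 and Edem1 also without wild-type library 2 or 3. All 3 were also lost with sex as a covariate, with log2 fold changes of 0.43, 0.59 and 0.53.

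Upstream, none of 13 tested genes for the eIF2 kinases, phosphatases and sensors passed in edgeR, DESeq2 or limma-voom, and 1 had an unadjusted edgeR p under 0.05. Their log2 fold changes ran from -0.15 (Eif2b4) to 0.20 (Eif2ak4). Eif2ak3, the gene of PERK, had 39.6, 33.1 and 34.3 CPM in transgenic libraries and 31.0, 34.5 and 32.1 CPM in wild-type libraries, which overlapped (log2 fold change 0.13, SE 0.09, edgeR adjusted p = 0.519). Eif2ak1 and Eif2ak2, which sense haem loss or mitochondrial stress and double-stranded RNA, stood at -0.01 and 0.03. Ppp1r15a encodes GADD34, which undoes the phosphorylation and is itself a target; it had a value of 0.19 (SE 0.08, edgeR adjusted p = 0.262), with all transgenic libraries higher.

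Among 12 genes for bZIP partners and feedback factors, 1 rose and the median was -0.21. The riser was Trib2, a paralog of Trib3, with 42.3, 44.1 and 43.3 CPM in transgenic libraries, against 32.5, 30.1 and 32.9 CPM in wild-type libraries. These groups were well separated, with a log2 fold change of 0.44 (SE 0.07, edgeR adjusted p = 0.0201). The other paralog, Trib1, stood at -0.24. Values that did not pass were -0.17 for Atf3, which ATF4 and CHOP switch on, -0.40 for Cebpb and 0.02 for Cebpg, both partners of ATF4, and -0.24 for Nupr1, a stress-induced chromatin protein.

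Of 12 genes for serine, glycine and other amino acid synthesis, 1 fell and none rose, with a median of 0.01. Phgdh and Psph, which flank Psat1 in serine synthesis, stood at 0.27 (edgeR adjusted p = 0.343) and -0.08 (edgeR adjusted p = 0.769), and Shmt2, which passes serine carbon to mitochondrial folate, at 0.17 (edgeR adjusted p = 0.479). Of 14 tested folate enzymes and carriers, none passed in edgeR, DESeq2 or limma-voom and 2 had an unadjusted edgeR p under 0.05 (median 0.04). Mthfd1l, the step after Mthfd2 that makes formate, stood at 0.36 (edgeR adjusted p = 0.246), Mthfd2l at 0.04 and Aldh1l1 at -0.15.

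Of 14 amino acid transporters 1 rose, Slc38a1, a glutamine carrier (0.62, SE 0.12, edgeR adjusted p = 0.0372), and the median was 0.08. It had 37.7, 34.8 and 33.4 CPM in transgenic libraries, against 26.8, 22.5 and 19.8 CPM in wild-type libraries, with no overlap. Slc7a5 and Slc3a2, which pair as a carrier of large neutral amino acids, stood at 0.17 and -0.07, and Slc6a9, a glycine carrier, at 0.52 (edgeR adjusted p = 0.212). None of 13 aminoacyl-tRNA synthetase and export genes passed in edgeR, DESeq2 or limma-voom, with 2 at an unadjusted edgeR p under 0.05 and a median of -0.03. The same held for 20 growth arrest, redox and death targets, with 3 at an unadjusted edgeR p under 0.05 and a median of 0.02, among them Ddit4, an mTORC1 inhibitor, at 0.25 and Vldlr, a lipoprotein receptor, at 0.24. It also held for 14 genes of the mitochondrial stress response, which Atf5 is known to drive, with 3 at an unadjusted edgeR p under 0.05 and a median of -0.08; the chaperone Hspd1 stood at -0.06 and the protease Lonp1 at -0.11.

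Of 23 genes of the other unfolded protein arms 1 rose, with a median of 0.05. It was Edem1, which helps send misfolded glycoproteins to degradation, at 52.8 ± 4.24 CPM in transgenic and 35.7 ± 4.41 CPM in wild-type tissue (SD, n = 3 each), with a log2 fold change of 0.56 (SE 0.11) and an edgeR adjusted p of 0.0393. Hspa5, the main chaperone of the endoplasmic reticulum, and Xbp1 both stood at 0.03, with edgeR adjusted p of 0.903 and 0.912. None of 8 receptor feedback genes passed in edgeR or limma-voom, and their median was -0.24. At an unadjusted edgeR p under 0.05 there were 4 of them. DESeq2 called 2 of the 8, both lower, and 1212 of all 19267 genes, 902 of them lower. This list shares genes with the mature neuron markers given below, so the lists are not separate results.

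**Figure D4:**
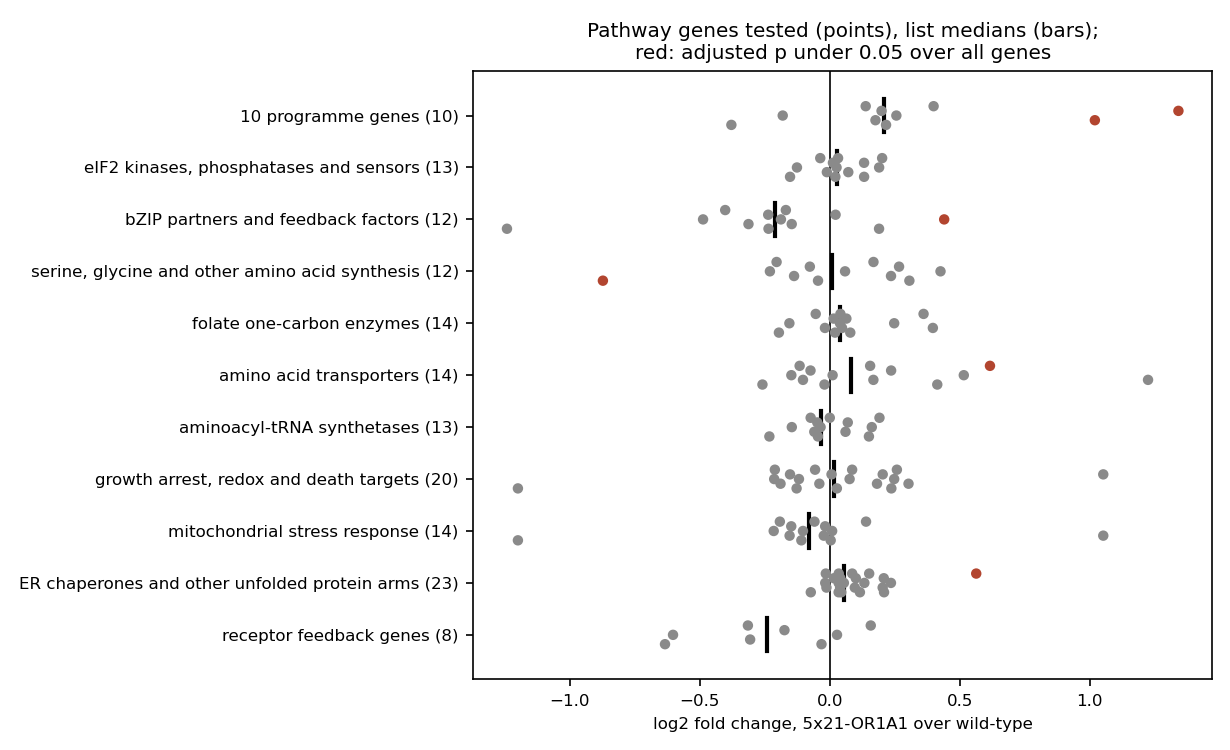
Log2 fold change, 5x21-OR1A1 over wild-type (x axis), of every tested gene in the 10 members and the 10 pathway lists (rows, number of genes in brackets); points are genes, black bars are medians, and red marks an edgeR adjusted p under 0.05 over all genes. List medians lie between -0.24 and 0.08, and red points outside the 10 members include Trib2, Slc38a1 and Edem1.

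Cell type markers moved in the same libraries. For comparison, 0.519% of all genes rose, 2.20% fell, 17.1% had an unadjusted edgeR p under 0.05 and 10199 of 19267 lay above 0. Of 16 markers of dividing and neurogenic progenitors 7 rose and 0 fell (median 0.55), with summed levels of 477 to 537 CPM in transgenic and 330 to 358 CPM in wild-type libraries. Of 13 immature neuron markers 5 rose and 1 fell (median 0.45; summed 2102 to 2264 CPM in transgenic and 1662 to 1876 CPM in wild-type libraries). Of 14 mature neuron markers 5 fell and 0 rose (median -0.66; summed 13292 to 14676 CPM in transgenic and 19503 to 25607 CPM in wild-type libraries). Of 11 tested plasma cell markers 1 rose, Jchain, and all 11 lay above 0 (median 0.60; summed 805 to 1437 CPM in transgenic and 554 to 764 CPM in wild-type libraries). In 49 tested markers of horizontal basal cells, supporting cells, macrophages and neutrophils, ensheathing glia and erythrocytes, none passed in edgeR. Of these, 6 had an unadjusted edgeR p under 0.05, and DESeq2 called 3 and limma-voom 0. All 3 DESeq2 calls were lower and fell among the 11 tested supporting cell markers. Of those 11, 4 had an unadjusted edgeR p under 0.05, 8 lay below 0 and 3 above (median -0.13). Leaving out 1 library gave 1 to 4 calls in the progenitor list (fewest without transgenic library 2 or 3), 2 to 6 in the immature list (fewest without transgenic library 1 or 2), 0 to 8 in the mature list (0 without any of the transgenic libraries or wild-type library 2) and 0 to 2 in the plasma cell list. With sex as a covariate, which is unevenly spread over the genotypes, edgeR called 3 progenitor, 4 immature, 0 mature and 0 plasma cell markers. DESeq2 without that covariate called 12, 11, 11 and 3. Over all 19267 genes the sex model called 289 and DESeq2 1212, against 523 in the main test. Leaving out 1 library gave 150 to 626 calls over all genes, and 150 to 175 where that library was transgenic. Without the covariate, 12 of the mature and 3 of the plasma cell markers had an unadjusted edgeR p under 0.05. No defining marker of the progenitor or plasma cell lists was at 0 in every library. The part of these shifts in the levels of Trib3 and Aldh1l2 was not tested.

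The genes nearest to Trib3 in profile, by the root mean square difference of centred log2 CPM over the 6 libraries, were Insm1 (0.0844), Neurod1 (0.125), Gap43 (0.125), Gtf3c3 (0.132) and Rnf144a (0.147), out of 10852 genes at a mean of 10 CPM or more. Insm1 and Neurod1 are transcription factors of neuronal progenitors and Gap43 is a growth cone protein of young neurons. Gtf3c3 and Rnf144a were in none of the marker lists, and Gtf3c3 had the highest log2 fold change of these neighbours (1.08, SE 0.08). Insm1 had 63.6, 71.2 and 69.6 CPM in transgenic libraries, against 27.8, 39.2 and 36.9 CPM in wild-type libraries, and like Trib3 it was lowest in wild-type library 1. By the same measure Ddit3 stood 0.324 from Trib3, Aldh1l2 0.370, Psat1 0.403, Sesn2 0.416, Mthfd2 0.440 and Asns 0.487. Atf4 stood at 0.632, Chac1 at 0.654 and Atf5 at 0.703.

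Aldh1l2 shared Gtf3c3 with Trib3 but otherwise had other neighbours, and less close ones: Igkc (0.283), Gtf3c3 (0.293), Calml3 (0.319), Igha (0.336) and Atp8b4 (0.357). Igkc and Igha are antibody genes of plasma cells, while Gtf3c3, Calml3 and Atp8b4 were in none of the marker lists. Igkc had 271, 139 and 330.4 CPM in transgenic libraries, against 99.4, 69.9 and 115 CPM in wild-type libraries. Like Aldh1l2, it was lowest among transgenic libraries in library 2. Igkc, Igha and Calml3 did not pass the threshold (edgeR adjusted p of 0.0624, 0.0885 and 0.128). Gtf3c3 and Atp8b4 did, both higher (edgeR adjusted p of 0.0012 and 0.0190). Both seeds were chosen for their rise in this contrast, so genes that separate the genotypes are near them in part by that choice.

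**Figure D5:**
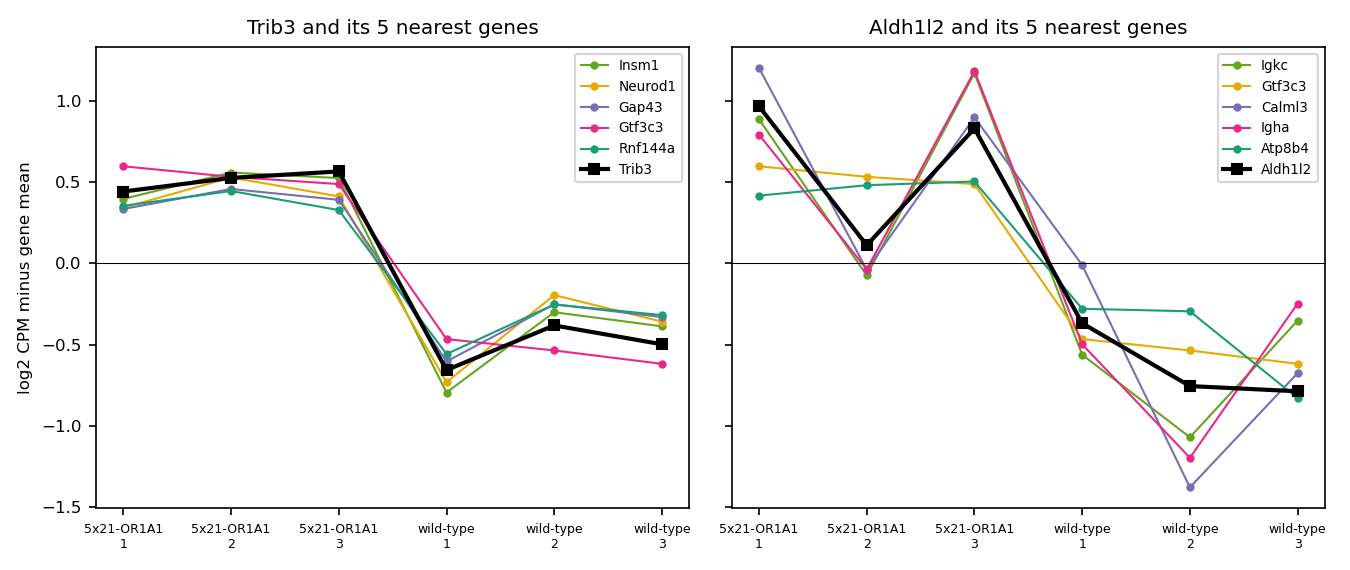
Centred log2 CPM (y axis) in the 6 libraries (x axis, 5x21-OR1A1 left of wild-type; lines only join the points of a gene) for Trib3 and Aldh1l2 (black) and the 5 genes nearest to each. The Trib3 neighbours stay within a root mean square difference of 0.147 on the log2 scale, while those of Aldh1l2 lie 0.283 to 0.357 away and Igkc, Calml3 and Igha dip in transgenic library 2.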

How the data were processed

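The authors deposited 1 table of raw read counts per gene symbol, not normalized, and every level was computed from it. Per the labels' protocols, libraries were nonstranded with poly-A selection and read as single ends of 100 bp. The submitters' processing notes list TopHat2 2.1.1, HTSeq 0.9.1 and GRCm38.p5, with no annotation release or counting options. The main test was edgeR's quasi-likelihood test (version 4.0.16, R 4.3.3; TMM scaling, default filter by group at 10 counts, and 15 in total, Benjamini-Hochberg adjustment over 19267 genes, called at 0.05). The SE is the size of a log2 fold change over the root of F. The edgeR, DESeq2 and limma-voom fits and the profile distance were run on simulated counts with known changes. A pass mark was set only for edgeR at changes larger than those of the 10 genes, and for a planted near-copy of a profile. DESeq2 1.42.0 and limma 3.58.1 served as alternatives, beside other scalings, filters, a replicate block, sex and leaving out each library. Pairs of replicates differed by far more than counting noise. Coordinates and exon lengths are from GENCODE M21 (GRCm38), and blastn 2.17.0 found no transcript of another gene with at least 97% identity over 100 bases to a member, apart from the shared bases of D10Wsu102e.

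The members and lists were chosen with earlier results of these data known. Genes named in the text are the 10 members, 25 listed pathway genes, up to 4 genes past the threshold in each pathway list, the 2 marker genes of lowest p in each marker list (some are given only by their list), and the 5 nearest in profile to each seed. Eif2b4, Trib1, D10Wsu102e, Omp, Slc7a3, Gdf15, Fgf21 and Fosl1 were named after their values were seen. Dele1 and Ahsp had no matching symbol in the table. The result of 1 called gene is not reported here.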

Additional observations from a re-analysis of the deposited data

How the results depend on the processing

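The replicate number as a block gave 377 called genes (main 523) and 1 member. It also gave 4 other pathway genes, where Trib2 was lost and 1 receptor feedback gene was called. Deviations of same-numbered libraries correlated with r of -0.333, 0.0723 and -0.17. Same-numbered libraries also differed in sex, so these values cannot show whether the numbers pair libraries. Called genes numbered 14984 with counts scaled to mature neuron markers (14729 higher, 255 lower, around a median of 0.715), 1212 with DESeq2, 289 with sex as a covariate, 154 at an adjusted p under 0.01 and 150 to 626 leaving out 1 library. Other pathway genes called, 4 in the main test, numbered 129 with marker scaling, 7 with DESeq2, 1 with sex, 0 at an adjusted p under 0.01 in edgeR (28 at an unadjusted p under 0.05) and 0 to 5 leaving out 1 library. Members called, 2 in the main test, numbered 9 with marker scaling, 4 with DESeq2 and 1 each with unscaled totals, limma-voom and sex, and 1 to 2 leaving out 1 library. Over the 15 alternatives Trib3 had values of 0.95 to 1.73 and Aldh1l2 of 1.17 to 2.04.

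Marker scaling turned Atf4 to 0.55, Atf5 to 0.33, Eif2ak1 to 0.69, Atf3 to 0.57, Cebpb to 0.31, Nupr1 to 0.46, Psph to 0.64, Aldh1l1 to 0.52, Slc3a2 to 0.63, Hspd1 to 0.65, Lonp1 to 0.59, Krt8 to 0.36, Foxd3 to 0.46 and Hba-a1 to 0.24. Values near 0 also changed sign. Sex as a covariate turned Eif2ak2 to -0.023, Atf3 to 0.033 and Mthfd2l to -0.013, and limma-voom turned Slc7a11 to -0.17. Without transgenic library 1, Chac1 was -0.13, Ddit4 -0.0051, Slc7a11 -0.39, Hspa5 -0.011 and Xbp1 -0.057; without library 2, Eif2ak1 was 5.65e-06; without library 3, Mthfd2l was -0.035 and Slc7a11 -0.32. Without wild-type library 1, Chac1 was -0.22, Cebpg -0.047 and Hspa5 -0.016; without library 2, Atf3 was 0.088 and Psph 0.017; without library 3, Eif2ak2 was -0.024, Mthfd2l -0.0079 and Slc7a11 -0.50. Leaving out 1 library, the highest values of these genes, or the lowest where the main value was below 0, were 0.71 for Chac1, -0.022 for Eif2ak1, 0.11 for both Eif2ak2 and Cebpg, 0.38 for Ddit4, -0.16 for Psph, 0.10 for Mthfd2l, 0.092 for Hspa5, 0.13 for Xbp1, -0.39 for Atf3 and 0.55 for Slc7a11. The cause was not tested. Counts of 38 to 168 limit the precision of Aldh1l2; all other members had at least 166 counts in each library.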

Other observations

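Slc7a11, the cystine carrier that ATF4 is known to induce, had 70.1, 4.56 and 66.8 CPM in transgenic libraries and 61.4, 72.2 and 6.57 CPM in wild-type libraries. Transgenic library 2 and wild-type library 3 thus lay far below the other libraries of either genotype, and the log2 fold change was 0.01 (SE 0.96, edgeR adjusted p = 0.997). Both libraries were within the range of the others for Trib3 in their own group. Slc7a3, a carrier of basic amino acids, and Gdf15, a stress hormone, were scarce targets with larger values that did not pass. Other scarce pathway genes lay as far in the lower direction, also without passing. Fgf21 stood at -1.20 (SE 0.61, edgeR adjusted p = 0.368) and Fosl1 at -1.24 (SE 0.49, edgeR adjusted p = 0.250), both with overlapping groups. Slc7a3 had 48, 38 and 28 counts in transgenic libraries, against 20, 16 and 14 counts in wild-type libraries (log2 fold change 1.22, SE 0.27, edgeR adjusted p = 0.0616). Gdf15 had 29, 26 and 19 counts in transgenic libraries, against 14, 14 and 9 counts in wild-type libraries (log2 fold change 1.05, SE 0.29, edgeR adjusted p = 0.113).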
